A study of Mus musculus with 4 samples.

Results

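10 genes of bone morphogenetic protein signaling were followed in ureter tumors of mice, namely the ligands Bmp2, Bmp4, Bmp5 and Bmp7, the secreted antagonists Grem1 and Nog, and the target genes Id1, Id2, Id3 and Id4. They were read from every probe set of the array that the platform annotation assigns to one of them alone, which gave 18 probe sets for 10 genes, out of 45101 probe sets and 18193 genes in all. The samples were 2 ureter tumors and 2 normal ureters, each hybridised to 1 Affymetrix mouse array. All 4 samples carry the labels C57Bl/6, an age of 6 to 8 weeks and isolated ureter epithelium. The same treatment text stands on all of them: mice R26rtTA;teto-Cre;Ncstnf/f received doxycycline at 3 weeks of age, during 1 week, which switches on Cre and recombines the conditional alleles of Ncstn. Ncstn encodes nicastrin, a subunit of the enzyme that cleaves Notch receptors, and R26 is a locus active in most cell types, so recombination is not limited to urothelium by the promoter. No label gives a genotype sample by sample, so whether the normal ureters carried the deletion cannot be stated. The study asked what Notch signaling does in cancer of the urothelium, the lining of the urinary tract. The labels call the samples biological replicates and name no animals, so p-values measure only the spread between these samples.

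BMPs are secreted dimers of the TGF-beta superfamily. They bind pairs of type I and type II receptor kinases, which phosphorylate Smad1, Smad5 and Smad9, and these enter the nucleus with Smad4 and switch on genes of which the Id family is the best known. Id proteins have a helix-loop-helix but no DNA-binding region, so they hold E proteins and other basic helix-loop-helix factors away from their sites, called E-boxes. Gremlin 1 and noggin bind BMPs outside the cell and keep them from their receptors. In the developing ureter, Bmp4 comes from the mesenchyme around the epithelium and is needed for the smooth muscle coat.

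Promoter sequences are shown for 5 of the genes because Bmp4 and Grem1 were higher on both tumor arrays, while Id2, Id3 and Id4, targets of the same pathway, differed from each other. Each window runs from 250 bases before to 50 bases after the RefSeq start of the gene on GRCm38.p6, on the strand of the gene. Capitals mark the GC-rich palindrome GGCGCC, which Smad1 and Smad5 bind in BMP-responsive elements, and the E-box CANNTG. Both motifs read the same on either strand as searched, and they do not overlap each other.
Bmp4 (chr14:46390620-46390919, minus strand): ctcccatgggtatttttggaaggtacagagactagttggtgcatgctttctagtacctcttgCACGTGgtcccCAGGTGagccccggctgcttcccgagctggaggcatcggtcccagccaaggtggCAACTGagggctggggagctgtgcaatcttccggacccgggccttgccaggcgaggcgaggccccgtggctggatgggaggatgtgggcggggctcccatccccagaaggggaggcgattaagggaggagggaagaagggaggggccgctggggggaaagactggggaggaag
Grem1 (chr2:113758599-113758898, minus strand): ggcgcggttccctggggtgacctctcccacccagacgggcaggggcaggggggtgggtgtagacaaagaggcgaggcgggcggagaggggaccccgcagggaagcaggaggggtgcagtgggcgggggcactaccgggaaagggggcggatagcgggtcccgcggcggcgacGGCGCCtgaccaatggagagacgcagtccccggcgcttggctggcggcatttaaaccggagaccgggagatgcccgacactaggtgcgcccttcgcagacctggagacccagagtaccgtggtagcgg
Id2 (chr12:25096043-25096342, minus strand): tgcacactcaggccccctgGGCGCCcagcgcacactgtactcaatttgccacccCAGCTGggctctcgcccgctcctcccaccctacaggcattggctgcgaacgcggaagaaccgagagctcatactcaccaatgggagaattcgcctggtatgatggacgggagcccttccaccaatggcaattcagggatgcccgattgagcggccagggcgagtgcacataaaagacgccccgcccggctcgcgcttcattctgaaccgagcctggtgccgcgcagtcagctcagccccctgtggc
Id3 (chr4:136143572-136143871, plus strand): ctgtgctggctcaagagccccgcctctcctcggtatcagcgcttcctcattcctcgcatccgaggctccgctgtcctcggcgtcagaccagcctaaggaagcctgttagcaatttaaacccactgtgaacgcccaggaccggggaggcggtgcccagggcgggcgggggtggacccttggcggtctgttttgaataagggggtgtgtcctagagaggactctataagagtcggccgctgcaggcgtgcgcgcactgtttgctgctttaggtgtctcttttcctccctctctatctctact
Id4 (chr13:48260866-48261165, plus strand): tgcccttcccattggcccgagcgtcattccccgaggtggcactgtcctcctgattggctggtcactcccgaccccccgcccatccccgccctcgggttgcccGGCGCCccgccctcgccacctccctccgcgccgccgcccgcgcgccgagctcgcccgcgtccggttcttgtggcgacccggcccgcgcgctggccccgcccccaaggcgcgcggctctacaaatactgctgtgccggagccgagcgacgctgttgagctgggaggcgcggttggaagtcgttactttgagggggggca
GGCGCC stood once each in the windows of Grem1, Id2 and Id4, and was in 11.9% of the 32544 distinct promoter windows of the same length. CANNTG stood 3 times in the window of Bmp4 and once in that of Id2, and was in 72.3% of all windows. The Id3 window held neither. Of the 10 genes, 6 matched a RefSeq window, the sixth being Bmp5, and Bmp2, Bmp7, Nog and Id1 did not. A match describes the letters and does not show a binding site.

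The deposited values were linear MAS5 signals, scaled to a common target, and having 4 arrays limits the precision. Pearson's r between arrays, taken across the 13046 tested genes, which are not independent replicates, was 0.786 between the tumor arrays and 0.976 between the normal arrays. Gapdh, whose 3' to 5' signal ratio rises where RNA is degraded, gave ratios of 1.51 and 1.44 for the tumors and 0.92 and 0.923 for the normal ureters. The urothelial markers were present in the normal ureters and in part low in the tumors: Upk3a, a plaque protein of surface urothelium, read 69.8 and 52.3 on the tumor arrays against 5987 and 11462 on the normal arrays. Each member was read from its brightest probe set, and differences are tumor minus normal on the scale log2(signal + 16). Signals of different probe sets depend on their probes, so levels are not compared between genes.

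Of the 10 genes, 9 were bright enough to be tested and Nog was not. None of the 9 passed the limma test at an adjusted p of 0.05, where 1.43% of all genes tested passed, 0.491% higher and 0.943% lower in the tumors, and 4 had an unadjusted p under 0.05, against 21.5% of all genes tested. In 3 of the 9 the tumor samples were both higher than either normal sample, against 29.4% of all genes tested, and in 4 both were lower, against 27.7%. In these 7 of 9 genes the groups did not overlap, as in 57.1% of all genes tested. The median difference of the 9 was 0.55, and over all genes tested it was 0.03. A looser rule of at least 2-fold with an unadjusted p under 0.05 took in 4 of the 9, Bmp4 and Grem1 on the higher side and Bmp2 and Id1 on the lower side, against 14.4% of all genes tested, 6.91% higher and 7.5% lower. Although the label names isolated ureter epithelium, markers of other cells were bright in the normal ureters. Fabp4, of fat cells, read 105906 and 124150 there, and Acta2, of smooth muscle, 35083 and 27665. The samples are thus read as bulk tissue, in which fewer cells of a type and less RNA per cell cannot be told apart.

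**Figure D1:**
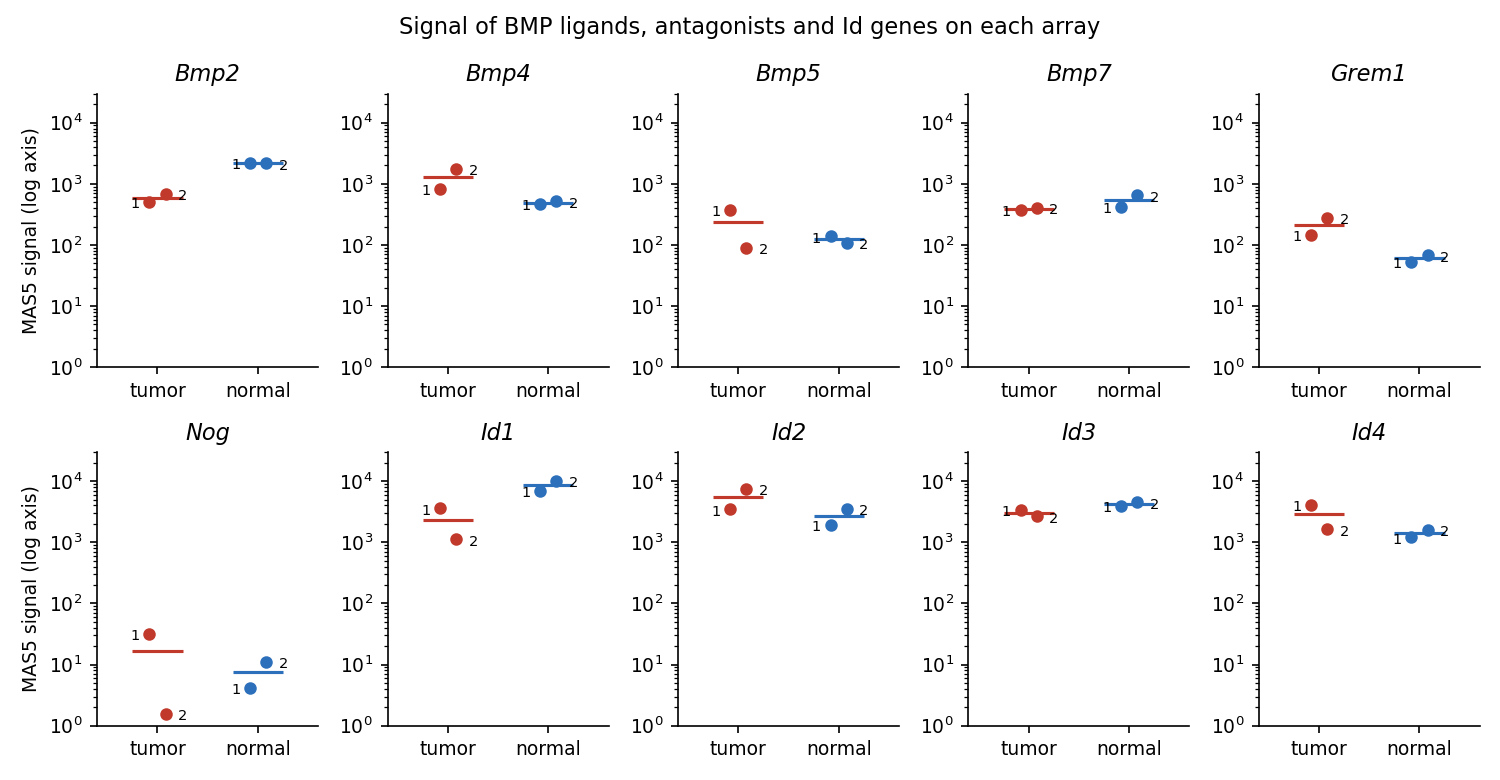
MAS5 signal on a log axis (vertical) of each of the 10 genes, with the 2 tumor arrays in red left of the 2 normal arrays in blue. Points are arrays numbered by replicate and bars are group means. Bmp2 and Id1 lie lower and Bmp4 and Grem1 higher on both tumor arrays, while Bmp5 and Nog lie on both sides of the normal arrays.

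Bmp2, a ligand expressed in many epithelia and mesenchymes, had the smallest p-value of the 9 genes tested. Its signal was 504 and 688 in the tumors, against 2171 and 2149 in the normal ureters. Both tumors were far below the normal samples, which were nearly equal to each other. The difference was -1.85 (SE 0.23, limma adjusted p = 0.0568, n = 2 per group), a 3.60-fold lower signal, with a 95% interval from -2.48 to -1.21. It ranked 268 by p-value among the 13046 genes tested. Fat cell markers were also lower in the tumors. All 5 that were measured of 6 listed lay below both normal arrays, against 27.7% of all genes tested. Their summed signal was 36258 and 6130.2 in the tumors against 220504 and 240771 in the normal ureters. Between the tumors this sum was lower in tumor replicate 2, where Bmp2 was higher. Fabp4, the brightest, had a difference of -3.20 (limma adjusted p = 0.137), and Ucp1, the uncoupling protein of brown fat, fell, with a difference of -10.06 (limma adjusted p = 0.00863, SE 0.20). No fat cell marker was listed at 0. Other lists were lower too, with 6 of 8 urothelial and 6 of 7 smooth muscle markers below both normal arrays. The part of fat, urothelial or smooth muscle cell RNA in the signal of Bmp2 was not tested.

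The genes whose pattern over the 4 arrays was most like that of Bmp2 were Tmem120a, Hadha and Ppox, with Euclidean distances of 0.0751, 0.0919 and 0.108 between centred log2 values. Their differences were -1.79, -1.78 and -1.79, with limma adjusted p-values of 0.0526, 0.0523 and 0.0813. With 4 arrays many genes can come this close.

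Bmp4, the mesenchymal ligand of the ureter, was higher in the tumors. Its signal was 822 and 1745 in the tumors, against 473 and 514 in the normal ureters. The groups did not overlap, and tumor replicate 2 was more than 3 times either normal sample. The difference was 1.25 (SE 0.42, limma adjusted p = 0.207, n = 2 per group), a 2.39-fold higher signal, with a 95% interval from 0.10 to 2.41.

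Bmp5 and Bmp7, ligands of one subgroup of the family, gave no shared direction. Bmp5 read 379.6 and 88.5 in the tumors, against 138 and 109 in the normal ureters. The tumor samples lay on opposite sides of the normal samples. Its difference was 0.55 (SE 0.74, limma adjusted p = 0.71), and it was 1.51 on tumor replicate 1 alone and -0.41 on tumor replicate 2 alone. The other Bmp5 probe sets, 1421283_at and 1421282_at, were dim, with means under the filter limit of 54.6, and both were highest on tumor replicate 1 as well, at 141 and 48.2.

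Bmp7, which the embryonic ureter epithelium and kidney express, read 378 and 399 in the tumors, against 422 and 649 in the normal ureters. Both tumors lay below both normal samples, by less than the normal samples differed from each other. The difference was -0.42 (SE 0.30, limma adjusted p = 0.485, n = 2 per group). The probe set 1418910_at gave 82.8 and 263 in the tumors against 149 and 391 in the normal ureters, and 1432410_a_at gave 23.5 and 2.08 in the tumors against 67.2 and 110.1 in the normal ureters. All 3 probe sets of Bmp7 had negative differences, at -0.42, -0.64 and -1.94. However, 1418910_at overlapped between the groups, and 1432410_a_at was dim, with a mean of 36.3, under the filter limit of 54.6.

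Grem1, the antagonist that binds Bmp2 and Bmp4, was higher in the tumors. Its signal was 144 and 275 in the tumors, against 52.5 and 67.5 in the normal ureters. The groups did not overlap, and as for Bmp4 the higher value was that of tumor replicate 2. The difference was 1.51 (SE 0.44, limma adjusted p = 0.177, n = 2 per group), a 2.85-fold higher signal, with a 95% interval from 0.29 to 2.73. The normal values lie near the filter limit, and the size depended on the pseudocount, at 1.73 with 1 and 1.10 with 64.

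Nog, which encodes noggin, was dim on every array. Its signal was 31.8 and 1.56 in the tumors, against 4.17 and 10.9 in the normal ureters. All 4 values lie under the filter limit of 54.6, so Nog was not tested and no direction can be read from it.

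Stromal markers differed among themselves. Of 8 fibroblast markers 0 passed the test, against 1.43% of all genes tested. In both tumors 4 were higher than in either normal sample and 1 was lower, against 29.4% and 27.7%. Their median difference was 0.56. Their summed signal was 152530.2 and 76781 in the tumors and 120662 and 92720.0 in the normal ureters, and a few bright probe sets made up most of it. Pdgfrb, a receptor of pericytes and fibroblasts, read 3509 and 6276 in the tumors against 1542 and 1919 in the normal ureters, and Col1a1, a collagen chain, read 1740 and 1979 in the tumors against 1165 and 723 in the normal ureters. Both, singled out after their values were seen, were highest on tumor replicate 2, as Bmp4 and Grem1 were. Their differences were 1.44 and 1.00 (limma adjusted p = 0.141 and 0.178). All other fibroblast markers went the other way between the tumors, with higher signals on tumor replicate 1. Dcn, for example, read 41972 and 11313 in the tumors, and Pdgfra read 4564 and 2423. Col3a1, the brightest, had a difference of 0.30 (limma adjusted p = 0.702). Of 7 smooth muscle markers 1 fell, Myh11, the smooth muscle myosin, with a difference of -3.37 (limma adjusted p = 0.0402, SE 0.25). Among all genes tested 0.943% fell. Of the 7 markers 6 lay below both normal arrays, against 27.7% of all genes tested. Their summed signal was 17070.5 and 27101 in the tumors against 57056 and 45871 in the normal ureters. Acta2, the brightest of them, had a difference of -1.21 (limma adjusted p = 0.195). No marker of either list was listed at 0, and their part in the signal of Bmp4 and Grem1 was not tested.

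**Figure D2:**
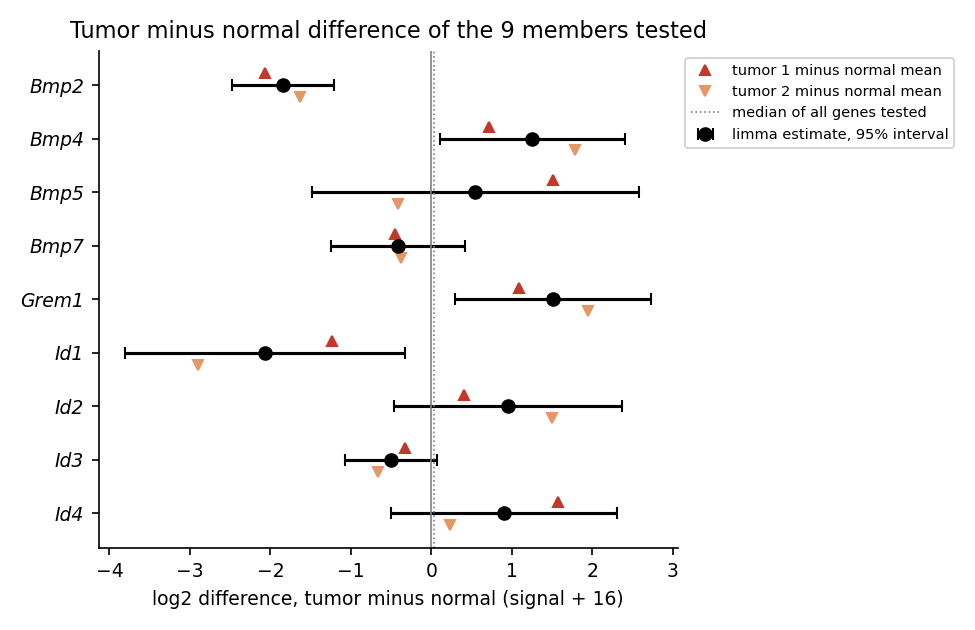
Log2 difference, tumor minus normal (horizontal), of the 9 genes tested. Black points are limma estimates with 95% intervals, and triangles are each tumor array minus the mean of the normal arrays. The intervals of Bmp2 and Id1 lie below 0 and those of Bmp4 and Grem1 above 0, and none of the 9 passed after adjustment over all genes.

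Id1, a direct BMP target, was lower in the tumors. Its signal was 3573 and 1113 in the tumors, against 6939 and 10166 in the normal ureters. Both tumors lay below both normal samples, and on the log2 scale the tumors differed more from each other than the normal samples did. The difference was -2.06 (SE 0.63, limma adjusted p = 0.187, n = 2 per group), a 4.18-fold lower signal, with a 95% interval from -3.81 to -0.32. It was -1.23 on tumor replicate 1 alone and -2.90 on tumor replicate 2 alone.

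Id3, which is often induced together with Id1, read 3352 and 2657 in the tumors, against 3954 and 4499 in the normal ureters. The groups did not overlap, and the gap was small. The difference was -0.50 (SE 0.21, limma adjusted p = 0.275, n = 2 per group). The order of the arrays was the same for Id1 and Id3, with tumor replicate 2 lowest and normal replicate 2 highest.

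Endothelial cells express Id1 and Id3 strongly. Of 7 endothelial markers 0 passed the test and 6 overlapped, where the groups did not overlap in 57.1% of all genes tested. Differences were above 0 in 2 of the 7. The median difference of the 7 was -0.08, which was 0.11 with the arrays centred on their medians. Kdr, the marker that did not overlap, read 515 and 627 in the tumors against 1173 and 1026 in the normal ureters. Its difference was -0.93 (limma adjusted p = 0.136). Eng, or endoglin, an endothelial co-receptor outside this list, was higher in both tumors, with a difference of 1.17 (limma adjusted p = 0.139). The summed signal of the endothelial markers was 6103 and 5683 in the tumors and 7171 and 6050.4 in the normal ureters. Emcn, the brightest, had a difference of -0.08 (limma adjusted p = 0.928), or 0.11 with the arrays centred on their medians. In the urothelial list 6 of 8 markers lay below both normal arrays, against 27.7% of all genes tested. Of the 8, 3 fell, Upk3a, Upk1b and Krt20, against 0.943% of all genes tested. Their differences were -6.76, -5.66 and -4.93 (limma adjusted p = 0.0369, 0.0425 and 0.042). The summed signal of the urothelial list was 26809.7 and 1826 in the tumors against 31322 and 53636 in the normal ureters. The part of endothelial or urothelial cells in the signal of Id1 and Id3 was not tested.

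Id2, which is also a target of other pathways, gave readings that depended on the probe set. From its brightest probe set, 1435176_a_at, it read 3458 and 7422 in the tumors, against 1926 and 3544 in the normal ureters. Tumor replicate 2 was the highest, and tumor replicate 1 lay between the normal samples. The difference was 0.95 (SE 0.52, limma adjusted p = 0.367, n = 2 per group). The probe set 1422537_a_at gave 1733 and 5272 in the tumors against 2409 and 3193 in the normal ureters, and 1453596_at gave 113 and 216 in the tumors against 314 and 215 in the normal ureters. Their differences were 0.12 and -0.68, and the mean over the probe sets was 0.13, so the direction of Id2 is not settled by these arrays.

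Id4, an Id protein of neural and basal epithelial cells, was high in one tumor. Its brightest probe set, 1450928_at, read 4141 and 1628 in the tumors, against 1208 and 1582 in the normal ureters. Tumor replicate 1 stood far above the other 3 samples, and tumor replicate 2 was just above the higher normal sample. The difference was 0.90 (SE 0.51, limma adjusted p = 0.386, n = 2 per group), with 1.57 for tumor replicate 1 alone and 0.23 for tumor replicate 2 alone. The probe set 1423259_at gave 4954 and 1340.5 in the tumors against 1317 and 1462 in the normal ureters. The probe set 1423260_at gave 1242 and 482 in the tumors against 378 and 327 in the normal ureters. Their differences were 0.89 and 1.11, so the 3 probe sets gave the same direction, each with tumor replicate 1 highest. On 1423259_at tumor replicate 2 lay between the normal samples, at -0.05 from their log2 mean. Whether both tumors lay above both normal samples thus depended on the probe set.

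Krt5 and Trp63, the basal markers of the urothelial list, were higher in tumor replicate 1 than in tumor replicate 2, as Id4 was. This order was not particular to basal markers. Dcn, Krt19 and Fabp4 from other lists had it too, while others, such as Krt8, did not. Krt5, the basal keratin and brightest of the urothelial list, read 15780 and 628 in the tumors against 3415 and 5518 in the normal ureters, with a difference of -0.45 (limma adjusted p = 0.903). Tumor replicate 1 was thus the highest and tumor replicate 2 the lowest of the 4 for Krt5. Id4, on its brightest probe set, was above both normal samples in tumor replicate 2. Kidney tubule markers ran the other way. Their summed signal over 5 markers was 6475 and 100608 in the tumors against 18188 and 23043 in the normal ureters. Of the 5, 0 passed the test and 5 overlapped, where the groups did not overlap in 57.1% of all genes tested. Umod, the brightest and a product of the loop of Henle, read 1268 and 57258 in the tumors against 4997 and 9982 in the normal ureters. No marker of either list was listed at 0, and their part in the differences between the tumor samples was not tested.

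The tumor samples differed from each other at least 2-fold in 5 of the 9 genes tested, Bmp4, Bmp5, Id1, Id2 and Id4, against 23.2% of all genes tested. The normal samples did so in 0 of the 9, against 3.52% of all genes tested. Bmp2, Bmp4, Bmp7, Grem1 and Id2 were higher in tumor replicate 2, and Bmp5, Id1, Id3 and Id4 were higher in tumor replicate 1. When one tumor array was left out, the other was assumed to vary like the normal arrays, and the calls then followed the array kept. Without tumor replicate 1, 6 members passed, Bmp2, Bmp4, Grem1, Id1, Id2 and Id3, against 32.9% of all genes tested. Without tumor replicate 2, 5 members passed, Bmp2, Bmp4, Bmp5, Id1 and Id4, against 42.2% of all genes tested. Without normal replicate 1 or normal replicate 2, the spread came from the tumor arrays alone, which differed more from each other. Calls were then lost over all genes, so their absence says nothing particular of the members.

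**Figure D3:**
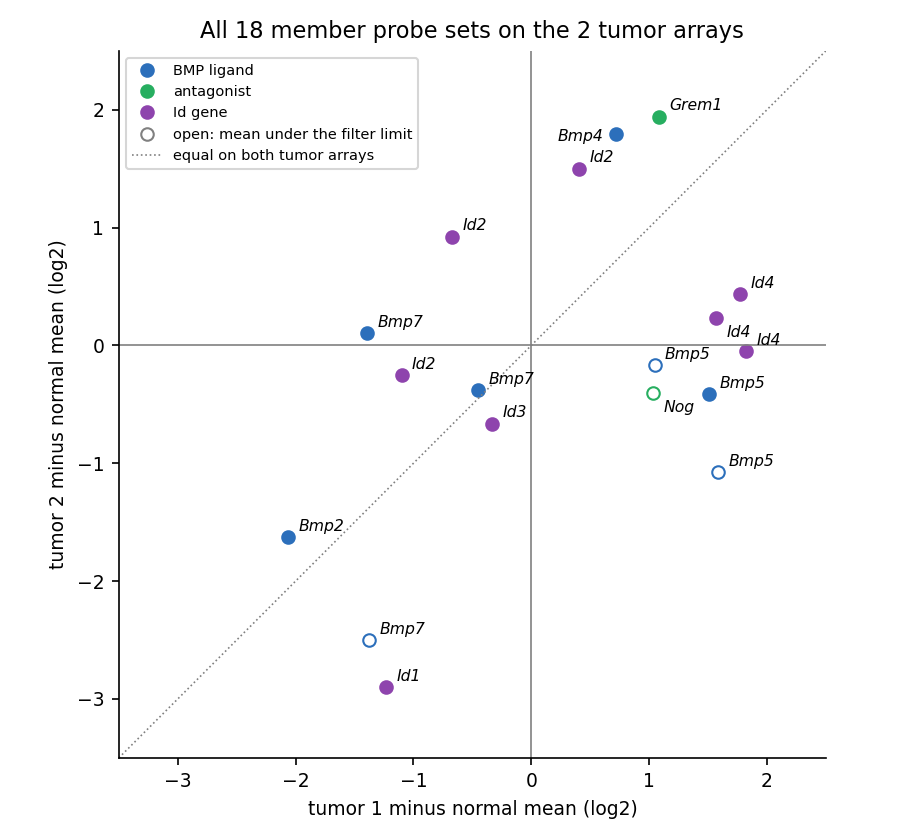
Each of the 18 probe sets as the log2 signal of tumor replicate 1 (horizontal) and tumor replicate 2 (vertical) minus the mean of the normal arrays. Open circles are the 4 probe sets with a mean under the filter limit, and the dotted line marks equal values. Bmp4 and Grem1 lie in the upper right, Bmp2, Id1 and Id3 in the lower left, the 3 probe sets of Id4 at about 1.6 to 1.8 on tumor replicate 1, and those of Id2 and Bmp7 are spread.

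Other genes of the pathway were taken from lists of ligands, antagonists, receptors, Smads, targets and E proteins. Of 56 genes listed, 51 were measured and 40 tested, 0 passed the limma test, and 9 had an unadjusted p under 0.05, against 21.5% of all genes tested. In 14 of the 40 the tumors were both higher than either normal sample, against 29.4% of all genes tested, and in 9 both were lower, against 27.7%. These shares are near those of all genes. The median difference was 0.07, against 0.03 over all genes tested. The looser rule of at least 2-fold took in 4 of the 40, against 14.4% of all genes tested.

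Among the 2 other ligands tested of 10 listed, Gdf2, the circulating ligand BMP9, had a difference of -0.62 and Bmp6 one of 0.06, with limma adjusted p-values of 0.633 and 0.964. Both overlapped between the groups.

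Of 11 other antagonists tested, 6 lay above and 2 below both normal arrays, against 29.4% and 27.7% of all genes tested. Their median difference was 0.54. Chrdl1, a chordin-like BMP binder, read 243 and 177 in the tumors against 681 and 556 in the normal ureters, a difference of -1.50 (SE 0.29, limma adjusted p = 0.105). Fstl3, a follistatin-like binder of activins and some BMPs, read 171 and 265 in the tumors against 57.1 and 14.1 in the normal ureters, a difference of 2.29 (SE 0.59, limma adjusted p = 0.154). Twsg1, which with chordin modulates BMPs, had a difference of 0.95 (limma adjusted p = 0.171). Fst, or follistatin, and Nbl1, a relative of gremlin, had differences of 0.84 and 0.68 (limma adjusted p = 0.316 and 0.358).

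Receptors and co-receptors had a median difference of 0.08 over 11 genes tested. Of these, 2 lay above and 3 below both normal arrays, against 29.4% and 27.7% of all genes tested. Eng, the endothelial co-receptor endoglin, read 1076 and 1650.5 in the tumors against 567 and 603 in the normal ureters, a difference of 1.17 (SE 0.28, limma adjusted p = 0.139). Bambi, a decoy receptor that BMP signaling induces, read 297 and 365 in the tumors against 588 and 596 in the normal ureters, a difference of -0.82 (SE 0.24, limma adjusted p = 0.177). The co-receptors Rgma and Rgmb had differences of -0.83 and 0.62, and the type I receptor Bmpr1b one of 1.00, with limma adjusted p-values from 0.259 to 0.474.

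**Figure D4:**
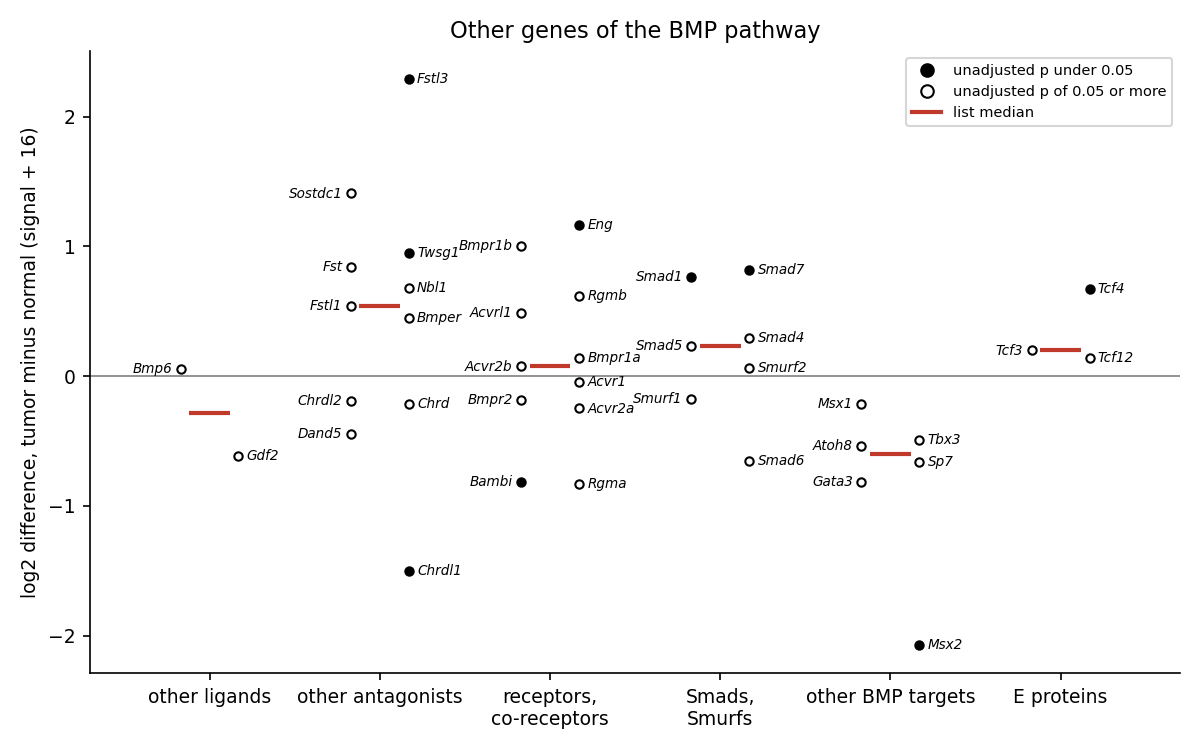
Log2 difference, tumor minus normal (vertical), of the 40 other BMP pathway genes tested, by list. Filled points have an unadjusted p under 0.05, open points do not, and red bars are list medians. All 6 targets other than Id genes lie below 0, though 3 of them overlapped between the groups, and 7 of 11 antagonists lie above 0. No gene passed after adjustment.

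The Smads and their ubiquitin ligases had a median of 0.23 over 7 genes tested. Of these, 5 lay above and 1 below both normal arrays, against 29.4% and 27.7% of all genes tested. Smad1, the BMP effector, read 3753 and 2853 in the tumors against 2068 and 1782 in the normal ureters, a difference of 0.76 (SE 0.22, limma adjusted p = 0.177). The inhibitory Smads had differences of opposite sign: Smad7, which also answers to TGF-beta, had a difference of 0.82 (SE 0.26, limma adjusted p = 0.199) and Smad6, the one tied more closely to BMP, one of -0.65 (SE 0.27, limma adjusted p = 0.276). Smad4 and Smad5 had differences of 0.30 and 0.23 (limma adjusted p = 0.376 and 0.563).

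Of 6 BMP targets tested other than Id genes, 3 lay below both normal arrays and 0 above, against 27.7% and 29.4% of all genes tested. Their median was -0.60. Msx2, a homeobox gene that BMPs induce, read 121 and 73.5 in the tumors against 321 and 624 in the normal ureters, a difference of -2.07 (SE 0.47, limma adjusted p = 0.129). Gata3, a transcription factor of urothelium and other epithelia, had a difference of -0.81, Sp7, a bone factor, one of -0.66, Atoh8 one of -0.54 and Tbx3 one of -0.49 (limma adjusted p from 0.365 to 0.724). Among the E proteins that Id proteins bind, Tcf4 read 3058 and 2742 in the tumors against 1841 and 1779 in the normal ureters, a difference of 0.67 (SE 0.17, limma adjusted p = 0.149). Tcf3 and Tcf12 had differences of 0.20 and 0.14 (limma adjusted p = 0.702 and 0.799).

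The remaining marker lists were read on the same arrays. All 6 macrophage markers lay above both normal arrays, against 29.4% of all genes tested. Of the 6, 3 rose, C1qb, Mpeg1 and Csf1r, against 0.491% of all genes tested. These 3 rose by 2.65, 2.26 and 1.96 on the log2 scale (limma adjusted p = 0.0402, 0.0425 and 0.0425). The summed signal of the 6 macrophage markers was 40003 and 32959 in the tumors against 9196 and 7919 in the normal ureters. Of 4 plasma cell markers Igha and Jchain rose, by 7.17 and 5.31 on the log2 scale (limma adjusted p = 0.00863 and 0.0288), and Xbp1 had a difference of 0.49. Their summed signal was 147815 and 126101 in the tumors against 19191 and 15897 in the normal ureters. General epithelial markers overlapped in 3 of 6, where the groups did not overlap in 57.1% of all genes tested. Their summed signals were 70866 and 46609 in the tumors and 59135 and 85136 in the normal ureters. Their brightest, Krt7, had a difference of -0.67 (limma adjusted p = 0.577). Striated muscle markers were dim, with sums of 208 and 187 in the tumors and 599 and 394 in the normal ureters. The part of these cell types in the values of the 10 genes was not tested.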

How the data were processed

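Signal intensity was deposited by the authors as 1 linear MAS5 value per probe set and array, and MAS5 is named in the submitters' processing notes. No source used here gives its version, its present calls or a filter. Symbols came from the platform annotation, updated through RefSeq gene IDs for 34741 of 34945 single-symbol probe sets. Of the rest, 932 listed more than 1 symbol, 9160 listed none here and 64 were controls. The brightest single-gene probe set, by mean log2(signal + 16), stood for each gene, and the test took genes at or above the 40th percentile of non-control probe sets (signal 54.6). Tumor was compared with normal by limma 3.58.1 (R 4.3.3), two-sided and with a trended prior variance, with Benjamini-Hochberg adjustment over the 13046 genes tested. There were 2 residual and 2.11 prior degrees of freedom. An exact permutation of 2 against 2 samples reaches p = 0.333 at best, so none was run. The procedure was tested on simulated data whose spread was taken from the normal arrays alone. The check was that planted differences were recovered on average. It cannot give the error rate here, because the tumor arrays differed more from each other than the normal arrays did. The members and lists were chosen with earlier results of these data known. Named genes are all members, up to 5 genes with the smallest p from each pathway list, the brightest and every passing marker, and 3 genes nearest to Bmp2. Samples with one replicate number did not deviate together (r = 0.0391 across genes). The alternatives were other pseudocounts, scalings, filters, probe set rules and priors, a replicate block, a 2-fold rule and leaving out each array. Figures were drawn with matplotlib 3.10.9.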

Additional observations from a re-analysis of the deposited data

How the results depend on the processing

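Over all genes 187 passed, and under the alternatives for which this count moved by over 1.5 times it was 35 with median centring, 111 with the mean of probe sets, 473 with every probe set, 2 without the intensity trend, 0 with the replicate block (2253 at an unadjusted limma p under 0.05) and 1880 by the 2-fold rule. Leaving out 1 array gave 0 to 5502 genes, 0 to 6 of the 9 members tested and 0 to 14 of the 40 other pathway genes tested. With all arrays 187 genes, 0 members and 0 other pathway genes had passed. The 2-fold rule gave 4 members and 4 other pathway genes. The replicate block left 0 members and 0 other pathway genes past the limma test (5 and 7 at an unadjusted p under 0.05), with Bmp2 at an adjusted p of 0.125. Leaving out an array turned the direction of Bmp5, between -0.41 and 1.51, and of Nog, between -0.41 and 1.04. Apart from leaving out arrays, no alternative turned the direction of a member or ended or made a call for it by adjusted p, and Bmp2 lay between -1.88 and -1.65 with adjusted p from 0.0519 to 0.125. Median centring moved the median of all genes tested to 0.22 and the members with it. The mean of probe sets gave -0.9997 for Bmp7 and 0.13 for Id2. At the 60th percentile filter Bmp5 and Grem1 were not tested. With 1 tumor array the spread comes from the normal arrays alone, and the cause of the other changes was not tested. Signals near the filter limit, as for Grem1 and Nog, limit what can be said of them.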

Other observations

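These genes of the pathway lists were singled out after their values were seen. Sostdc1, an antagonist of BMP and Wnt ligands made in the distal kidney tubule among other sites, read 112 and 6071 in the tumors against 317 and 316 in the normal ureters, a difference of 1.41 (limma adjusted p = 0.719, SE 1.95, n = 2 per group). The high sample was tumor replicate 2, in which the kidney tubule markers summed to 100608, and the part of kidney RNA in it was not tested. Gdf5, a ligand of joint development, read 2.41 and 1.19 in the tumors against 76.8 and 81.9 in the normal ureters, and its mean lay under the filter limit, so it was not tested.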
